A study of Mus musculus with 24 samples.

Results

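Wide MLL1 domains are long stretches of the genome with the histone methyltransferase MLL1, as opposed to the narrow regions that make up most of its binding. The domains described here were chosen from the 4 lists of MLL1 regions in DMSO-treated mouse leukaemia lines, each line carrying a different NUP98 fusion, by the width of the listed rows. Rows of 2000 bp or more on chromosomes 1 to 19 and X were taken, rows that overlapped between lines were merged, and a merged domain was kept when 2 or more lines had a wide row in it. Domains on chromosome 9 below 3.1 Mb were dropped, which removed 9 wide rows. This left 315 shared wide domains of 1055 merged ones, and the other 740 had a wide row in 1 line only. The DMSO MLL1 lengths and widths therefore chose the domains, and they are given below as a description.

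MLL1 is the mammalian trithorax protein. It places methyl groups on lysine 4 of histone H3, and trimethylation of that lysine (H3K4me3) marks the starts of active genes. Menin is a scaffold protein that holds MLL1 at part of its sites through a pocket that binds the end of MLL1, and small molecules that fill this pocket separate the 2 proteins. In blood stem and progenitor cells, MLL1 and menin are known for keeping the later Hoxa genes and their partner Meis1 active, genes that several leukaemias depend on.

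The study asked what such an inhibitor, VTP50469, does in cells with NUP98 fusions, in which a nuclear pore protein is joined to a homeodomain or chromatin protein. The mouse leukaemia cells grew in medium with the cytokines IL-3, IL-6 and SCF and received VTP50469 or the solvent DMSO. MLL1 was mapped in NUP98-HOXA9 cells after 72 h at 2 µM, in NUP98-HOXD13 and NUP98-JARID1A cells after 96 h at 2 µM, and in NUP98-NSD1 cells after 96 h at 200 nM, each beside DMSO cells of the same time. For NUP98-NSD1 the sample labels give 200 nM while the treatment protocol names 2 µM, and the labels were followed. Menin was mapped in NUP98-HOXA9 and NUP98-HOXD13 cells and H3K4me3 in NUP98-HOXA9 cells, all after 96 h at 2 µM. Every line is 1 leukaemia culture and every condition 1 library, so no value has a replicate error and no p-value was computed. The 4 MLL1 pairs differ in fusion and in a date-like code in their sample titles, and one of them in dose and another in time. These cannot be told apart between lines. In a bulk culture, fewer cells with MLL1 at a site and less MLL1 per cell cannot be told apart either.

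The 14 lists differ in length, and read depth is unknown. MLL1 lists held 997 to 24714 rows after VTP50469 and 7064 to 22339 rows in DMSO on the chromosomes used. The NUP98-JARID1A list was longer after treatment, with 24714 rows against 15632 in DMSO, whereas the other MLL1 lists and both Menin lists were shorter. The shortest lists were Menin in treated NUP98-HOXA9 cells (345 rows, against 8961 in DMSO) and MLL1 in treated NUP98-NSD1 cells (997 rows, against 7064 in DMSO). A stretch missing from a list lies below the limit at which the authors' caller lists a region, which is not the same as an absence of the protein.

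Of the 315 domains, 8 stood apart: at least 50% of their length was covered by the Menin list of treated NUP98-HOXA9 cells, which covered 3.06% of all domain bases. Of the 8, 6 overlap no protein-coding gene, and 1 of the others lies at Tmem267 and another at Mid1. At chr17:39842994-39848836, which is 5843 bp long, all 12 MLL1 and Menin lists covered 5735 to 5843 bp, while both H3K4me3 lists covered 0 bp. The main values are therefore given without the 8 domains as well, over the other 307. In what follows, bases are called lost where the DMSO list covers them and the VTP50469 list does not, and kept where both do.

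Promoters of 6 genes show the range of what happened in the domains. They were taken from RefSeq (build GRCm38.p6), 250 bases before to 50 after the start, in the direction of transcription, with each CG dinucleotide in capitals because unmethylated CG-rich DNA is what the CXXC domain of MLL1 binds. Of all 21044 promoters in the table, 95.5% hold at least 1 CG, and the palindrome reads the same on both strands. Meis1, Hoxa9 and Baz2b are shown for promoters that lost most or all of their MLL1 in NUP98-HOXA9 and NUP98-HOXD13, Cdk6 for a promoter that kept it in some lines, and Cdkn1b and Sp3 for promoters that kept it in the 3 lines given 2 µM.
Meis1, chr11:19018920-19019219, minus strand: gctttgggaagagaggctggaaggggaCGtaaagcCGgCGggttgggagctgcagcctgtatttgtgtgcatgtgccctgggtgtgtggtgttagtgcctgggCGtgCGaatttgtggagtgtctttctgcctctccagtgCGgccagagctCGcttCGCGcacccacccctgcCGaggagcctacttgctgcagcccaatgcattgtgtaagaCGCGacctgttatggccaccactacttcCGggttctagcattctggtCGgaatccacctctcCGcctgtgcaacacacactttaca
Hoxa9, chr6:52227321-52227620, minus strand: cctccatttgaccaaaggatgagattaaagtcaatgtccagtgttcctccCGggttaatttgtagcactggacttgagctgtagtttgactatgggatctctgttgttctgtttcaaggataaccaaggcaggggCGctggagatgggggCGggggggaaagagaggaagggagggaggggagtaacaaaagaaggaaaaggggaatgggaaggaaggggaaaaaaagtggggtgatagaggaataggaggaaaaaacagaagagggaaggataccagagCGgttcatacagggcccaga
Baz2b, chr2:60125691-60125990, minus strand: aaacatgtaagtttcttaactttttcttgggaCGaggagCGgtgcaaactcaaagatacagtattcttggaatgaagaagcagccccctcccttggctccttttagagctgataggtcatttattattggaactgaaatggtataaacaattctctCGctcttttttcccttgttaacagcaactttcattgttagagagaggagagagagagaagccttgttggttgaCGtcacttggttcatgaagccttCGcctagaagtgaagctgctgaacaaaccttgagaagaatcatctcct
Cdk6, chr5:3343643-3343942, plus strand: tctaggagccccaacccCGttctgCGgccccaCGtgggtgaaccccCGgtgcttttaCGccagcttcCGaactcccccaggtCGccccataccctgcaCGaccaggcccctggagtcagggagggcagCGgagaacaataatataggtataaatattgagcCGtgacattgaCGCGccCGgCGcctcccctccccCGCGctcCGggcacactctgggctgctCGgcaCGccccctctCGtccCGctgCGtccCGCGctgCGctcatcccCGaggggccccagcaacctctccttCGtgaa
Cdkn1b, chr6:134920151-134920450, plus strand: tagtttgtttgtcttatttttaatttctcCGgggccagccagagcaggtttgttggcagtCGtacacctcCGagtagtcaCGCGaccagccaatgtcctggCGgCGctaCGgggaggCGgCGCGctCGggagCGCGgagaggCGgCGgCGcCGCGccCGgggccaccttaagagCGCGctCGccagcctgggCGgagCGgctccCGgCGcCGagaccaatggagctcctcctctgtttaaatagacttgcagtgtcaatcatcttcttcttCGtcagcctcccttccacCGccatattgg
Sp3, chr2:72980397-72980696, minus strand: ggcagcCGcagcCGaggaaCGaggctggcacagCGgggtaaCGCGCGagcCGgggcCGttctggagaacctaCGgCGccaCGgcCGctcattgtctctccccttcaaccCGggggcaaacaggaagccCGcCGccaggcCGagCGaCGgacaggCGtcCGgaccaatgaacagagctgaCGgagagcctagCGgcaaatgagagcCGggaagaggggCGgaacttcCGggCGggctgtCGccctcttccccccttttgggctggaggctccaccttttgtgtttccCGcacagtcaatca
All 6 stretches of 300 bases were fully covered by MLL1 in DMSO-treated NUP98-HOXA9, NUP98-HOXD13 and NUP98-JARID1A cells.

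After VTP50469 the 6 promoters differed within a line and between lines. Hoxa9 holds 4 CG, and MLL1 covered 0 of its 300 promoter bases in treated NUP98-HOXA9, NUP98-HOXD13 and NUP98-NSD1 cells, against 300 in DMSO cells of each. Baz2b, a bromodomain gene with 5 CG, had 76, 0 and 0 covered bases in those treated lines, against 300 in DMSO in each. The Meis1 promoter holds 15 CG, and MLL1 covered 132, 0 and 0 bases there after treatment, against 300, 300 and 191 in DMSO. In treated NUP98-JARID1A cells all 3 were still covered over 300 bases. The Cdk6 promoter, with 27 CG, kept 300 bases in treated NUP98-HOXA9 cells and 0 in treated NUP98-HOXD13 and NUP98-NSD1 cells. Cdkn1b and Sp3, with 30 and 29 CG, kept 300 bases in the 3 treated lines given 2 µM, and in treated NUP98-NSD1 cells they had 101 and 0 bases, against 300 in DMSO. Of all promoters, 17.3% hold at least as many CG as the Sp3 one shown, and 76.7% at least as many as the Hoxa9 one. The 6 were picked with their values known, so no relation to CG is read from them.

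The shared wide domains were long and few. Their width ran between 2038 and 32620 bp with a median of 3497 bp, against a median of 537 bp for the 26907 merged DMSO MLL1 regions outside them. Of the 315, 86 reached 5 kb and 13 reached 10 kb, and together they measured 1429492 bp. Wide rows came from all 4 lines in 49 domains, from 3 lines in 83 and from 2 lines in 183. The most frequent pair was NUP98-HOXA9 with NUP98-JARID1A, alone together in 88 domains, and NUP98-NSD1, which had the shortest DMSO list, took part in 80.

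Most of the domains lay on genes. A protein-coding gene overlapped 296 of them, a start of such a gene lay inside 221, and starts of 2 or more genes lay inside 31. These counts were not made for all merged regions, and a long stretch has more room to meet a gene. Within 1 kb of a start lay 32.7% of the bases of the 307 domains, against 39.7% of the bases of MLL1 regions outside the domains. In all they overlapped 351 of 21627 protein-coding genes (1.62%), of which 276 have a start in the promoter table. DMSO MLL1 regions touched 315 of the 315 in NUP98-HOXA9 cells, 314 in NUP98-HOXD13 cells, 311 in NUP98-JARID1A cells and 279 in NUP98-NSD1. Over all merged regions the shares touched were 79.2%, 70.0%, 55.2% and 24.5% in the same order, and the wide rows that chose the domains are part of the counts. At the width limit, the second-widest line had a row of 2002 bp at Rsbn1l and 2004 bp at Zcchc2 and Ankrd10, just inside, and of 1998 bp at Srsf2 and Mfsd11, 1994 bp at Tox and 1993 bp at Khdrbs1, just outside.

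**Figure D1:**
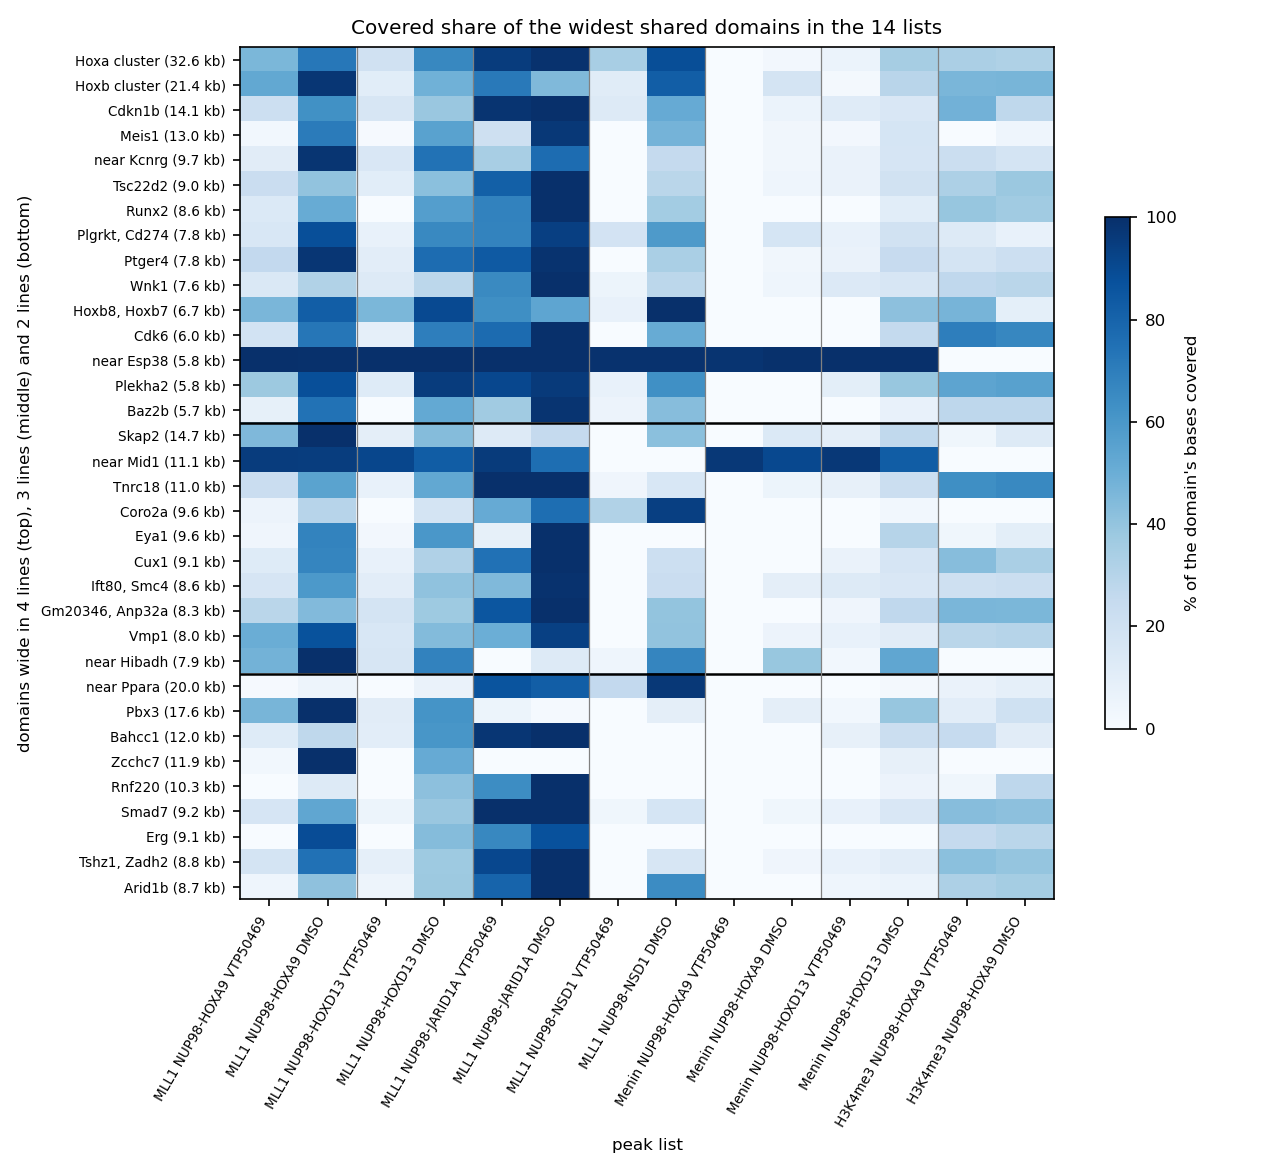
The colour gives the percent of a domain's bases that a peak list covers, for the widest shared domains (rows, with their genes and width) in the 14 lists (columns, VTP50469 left of DMSO in each pair). Rows are the 15 widest domains with wide rows in 4 lines, then the 10 widest of 3 lines and 9 of the 10 widest of 2 lines. Where no protein-coding gene is overlapped, the row carries the nearest one, at any distance. Most MLL1 columns are paler after VTP50469. The row labelled near Esp38, 101683 bp from that gene, stays dark in all 12 MLL1 and Menin columns. The H3K4me3 columns of a row look alike except at a few domains such as Meis1, Cdkn1b and the one at Hoxb8 and Hoxb7.

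Developmental transcription factors held some of the widest domains, while others lay elsewhere. One of them, 19992 bp wide, has Ppara as its nearest protein-coding gene, 53467 bp away, and another, 14686 bp wide, lies at Skap2. The widest, chr6:52208344-52240963, ran over Hoxa3, Hoxa6, Hoxa7, Hoxa9 and Hoxa10, homeodomain factors that specify position in the embryo and of which the later ones maintain blood progenitors. MLL1 covered 14918 bp of it in VTP50469-treated NUP98-HOXA9 cells, against 23666 bp in DMSO (63.0% left). It covered 6416 bp in treated NUP98-HOXD13 cells, against 21632 bp in DMSO (29.7% left). In NUP98-JARID1A cells the treated length, 31082 bp, was close to the 32358 bp of DMSO, while NUP98-NSD1 cells had 11212 bp after treatment, against 28882 bp in DMSO. The stretch was also in more pieces in treated NUP98-HOXA9 cells, with 11 rows and a widest one of 3255 bp, against 2 rows and a widest one of 23187 bp in DMSO. The domains as a set were not in more pieces in this line, with 483 rows after treatment and 487 in DMSO. In NUP98-JARID1A cells the widest row measured 28319 bp after treatment and 30990 bp in DMSO.

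Menin and H3K4me3 at the Hoxa domain took different courses. The Menin list of treated NUP98-HOXD13 cells covered 2009 bp, against 11378 bp in DMSO, and that of NUP98-HOXA9 cells covered 0 bp after treatment, against 802 bp in DMSO. H3K4me3 in NUP98-HOXA9 cells covered 10937 bp after VTP50469, against 10515 bp in DMSO. Chromosome 6 held 15.7% of the rows of the treated NUP98-NSD1 list and 9.05% of its DMSO list, against 4.64% to 5.51% in the other 12 lists. Of the 22 domains on that chromosome, 16 had a wide NUP98-NSD1 row, and the part of this in the values of that line at Hoxa, Cdkn1b, Skap2, Foxp1 and Etv6 was not tested.

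The Hoxb cluster held a pair of domains with wide rows in 4 lines. At chr11:96300280-96321707, over Hoxb3, Hoxb4, Hoxb5 and Hoxb6, MLL1 covered 11288 bp in treated NUP98-HOXA9 cells, against 20861 bp in DMSO, and 2334 bp in treated NUP98-HOXD13 cells, against 10404 bp in DMSO. There it covered 15368 bp in treated NUP98-JARID1A cells, more than the 9620 bp of DMSO. Treated NUP98-NSD1 cells had 2499 bp, against 17635 bp in DMSO. Menin covered 364 bp in treated NUP98-HOXD13 cells, against 6206 bp in DMSO, and H3K4me3 covered 9877 bp in treated NUP98-HOXA9 cells, against 10021 bp in DMSO. Over Hoxb7 and Hoxb8, at chr11:96278861-96285609, the H3K4me3 length was 3172 bp after VTP50469, against 620 bp in DMSO, although MLL1 in the same line had 3120 bp, against 5552 bp in DMSO. A Hoxc domain over Hoxc4 and Hoxc5 was absent from both lists of NUP98-JARID1A and NUP98-NSD1. MLL1 covered 5326 bp of it in treated NUP98-HOXA9 cells, against 6291 bp in DMSO, and 2235 bp in treated NUP98-HOXD13 cells, against 5390 bp in DMSO.

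Meis1 encodes the DNA-binding partner that joins HOX proteins on their targets, and its domain was among those that kept least MLL1. At chr11:19007484-19020504, MLL1 covered 357 bp in treated NUP98-HOXA9 cells, against 9220 bp in DMSO, and 107 bp in treated NUP98-HOXD13 cells, against 7183 bp in DMSO. Treated NUP98-JARID1A cells had 2675 bp, against 12568 bp in DMSO, and treated NUP98-NSD1 cells had 0 bp, against 6189 bp in DMSO. Each treated list thus held at most 21.3% of the length of its DMSO list. Menin covered 328 bp of it in treated NUP98-HOXD13 cells, against 2194 bp in DMSO, and H3K4me3 covered 0 bp in treated NUP98-HOXA9 cells, against 587 bp in DMSO.

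Pbx3, another partner of HOX proteins, had a domain of 17614 bp (chr2:34355720-34373333) that belonged to 2 lines. MLL1 covered 8226 bp in treated NUP98-HOXA9 cells, against the whole 17614 bp in DMSO, and 1954 bp in treated NUP98-HOXD13 cells, against 10861 bp in DMSO. In NUP98-JARID1A cells it was nearly free of MLL1 in both conditions, with 947 bp after treatment and 274 bp in DMSO. Menin in NUP98-HOXD13 cells covered 521 bp after VTP50469, against 6907 bp in DMSO, and H3K4me3 in NUP98-HOXA9 cells 1804 bp, against 3545 bp in DMSO.

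Genes known as targets of menin and MLL1 in leukaemia were frequent among the members. Of 29 genes on that list, 14 overlapped a shared wide domain, among them Meis1, Pbx3, Hoxa7, Hoxa9 and Hoxa10 from above. Of all protein-coding genes 1.62% did, counted whether or not they had MLL1, and of 20 housekeeping genes 3 did. The gene lists here and below were chosen with earlier results of these data known. Their overlaps and the lengths left in their domains are therefore descriptions. The 12 domains concerned kept a median of 26.3% of the DMSO MLL1 length in NUP98-HOXA9 cells and 14% in NUP98-HOXD13 cells, where the medians over all members were 50.7% and 37.7%. At 50% or less were 11 of 12 in NUP98-HOXA9 cells, 12 of 12 in NUP98-HOXD13 cells, 2 of 12 in NUP98-JARID1A cells and 10 of the 10 with DMSO MLL1 in NUP98-NSD1. Over all merged DMSO MLL1 regions, 27.0%, 40.2%, 10.1% and 94.6% were at 50% or less in these lines, so the count in NUP98-NSD1 is near that of all regions. The exception in NUP98-HOXA9 was the Hoxa domain.

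Eya1, a transcription coactivator with phosphatase activity, had the lowest mean of the percent left over the 3 lines given 2 µM, among the 184 domains with at least 2000 bp of DMSO MLL1 in each of them. At chr1:14301043-14310656, MLL1 covered 405 bp in treated NUP98-HOXA9 cells, against 6502 bp in DMSO. The treated NUP98-HOXD13 list had 253 bp there, against 5774 bp in DMSO, and the treated NUP98-JARID1A list 817 bp, against 9614 bp in DMSO. NUP98-NSD1 had no MLL1 there in either condition. Menin in NUP98-HOXD13 covered 0 bp after treatment, against 2879 bp in DMSO.

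Meis1 and Baz2b came next in that order. Baz2b (chr2:60121425-60127145) had 479, 0 and 2091 bp in treated NUP98-HOXA9, NUP98-HOXD13 and NUP98-JARID1A cells, against 4250, 2989 and 5620 bp in DMSO. Dnajc6, a cofactor for uncoating clathrin vesicles, Mns1, a protein of sperm flagella and cilia, and Nsmaf, an adaptor of the TNF receptor, completed the 6 lowest, and each had 0 bp in treated NUP98-HOXD13 cells. Their DMSO lengths in that line were 2303 bp at Dnajc6, 2521 bp at Mns1 and 2228 bp at Nsmaf.

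Runx2 and Erg show the same contrast between lines. Runx2, a RUNX-family factor, had no MLL1 left in treated NUP98-HOXD13 cells, against 4901 bp in DMSO, and 1205 bp in treated NUP98-HOXA9 cells, against 4390 bp in DMSO. It kept 5868 bp in treated NUP98-JARID1A cells, against 8622 bp in DMSO. At Erg, an ETS factor of blood stem cells, the treated NUP98-HOXA9 and NUP98-HOXD13 lists had 0 bp, against 8111 and 3988 bp in DMSO. Treated NUP98-JARID1A cells had 6047 bp at Erg, against 7960 bp in DMSO. Erg was 1 of 5 domains with no MLL1 left in both treated NUP98-HOXA9 and NUP98-HOXD13 cells, with Rnf220, Sgk3, Rcsd1 and Parp14. Taken singly, 5 of 315 domains had none left in NUP98-HOXA9 and 33 of 314 in NUP98-HOXD13. Over all merged regions, which were narrower, it was 4277 of 21573 and 5792 of 19063. How many of all regions had none left in both lines was not counted.

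Blood stem and progenitor factors as a list had 12 of 27 genes in 14 domains. Of the 14, MLL1 was at 50% or less in 12 in NUP98-HOXA9 cells, 13 in NUP98-HOXD13 cells and 3 in NUP98-JARID1A cells, beside 27.0%, 40.2% and 10.1% of all regions. In NUP98-NSD1 it was 11 of 11, beside 94.6%. Myb, a factor that progenitors need to proliferate, kept 871 bp in treated NUP98-HOXA9 cells, against 3870 bp in DMSO, and 393 bp in treated NUP98-HOXD13 cells, against 2570 bp in DMSO. Runx1, a master regulator of blood formation, differed between those lines: 2312 bp after treatment in NUP98-HOXA9, against 2421 bp in DMSO, but 996 bp in treated NUP98-HOXD13 cells, against 2921 bp in DMSO. Elf1, an ETS factor, had 83.3% left in NUP98-HOXA9 cells, 55.6% in NUP98-HOXD13 cells and 39.6% in NUP98-JARID1A cells.

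Of the cell cycle regulators, 3 of 17 genes overlapped members. Cdk6 is the kinase that drives progenitors into the cell cycle, and its domain had 1107 bp in treated NUP98-HOXA9 cells, against 4385 bp in DMSO. The treated NUP98-HOXD13 list covered 530 bp of it, against 4203 bp in DMSO, and the treated NUP98-JARID1A list 4634 bp, against 6016 bp in DMSO. Cdkn1b encodes the inhibitor p27, which holds cells in G1. Its domain (chr6:134919691-134933809) kept 3067 bp in treated NUP98-HOXA9 cells, against 8863 bp in DMSO, and 13873 bp in treated NUP98-JARID1A cells, against 14119 bp in DMSO. H3K4me3 there covered 6821 bp after VTP50469, against 3832 bp in DMSO. The domain over Rb1, the retinoblastoma gene, and Lpar6, which lies inside it, had 603 bp in treated NUP98-HOXA9 cells, against 2693 bp in DMSO.

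The signalling list had 5 of 24 genes among the members, with Jak2, Socs1, Pim1 and Pik3r1 among them. None of the 5 was at 50% or less in NUP98-HOXA9, and Jak2, a kinase that carries cytokine signals, was the only one in NUP98-HOXD13, where 27.0% and 40.2% of all regions were. All 5 were in NUP98-NSD1, beside 94.6% of all regions. Jak2 had 1135 bp in treated NUP98-HOXD13 cells, against 2867 bp in DMSO. Socs1, which shuts off cytokine receptors, had 2127 bp in treated NUP98-HOXA9 cells, against 2643 bp in DMSO. Pik3r1, a regulatory subunit of PI3 kinase, had 1768 bp in treated NUP98-HOXA9 cells, against 2606 bp in DMSO.

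Of all protein-coding genes, 1.62% overlapped a member, and the remaining lists are given beside that share. Myeloid differentiation factors had 3 of 16 (Cebpa, Cebpb and Gfi1), chromatin regulators 3 of 22 (Kdm6a, Ezh2 and Arid1b), MLL and menin complex genes 1 of 18 (Aff1, with 2 domains) and housekeeping genes 3 of 20 (B2m, Ywhaz and Hsp90ab1). No gene of the erythroid and megakaryocyte list (0 of 11), the lymphoid list (0 of 12) or the mast cell list (0 of 8) overlapped a member, and at 1.62% lists of this length hold about none. Peak lists give binding at these genes and not their expression, so they do not check the identity of the cells.

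At the other end, some domains kept their whole length. Ywhaz, a 14-3-3 adaptor protein, had 2581 bp in both treated and DMSO NUP98-HOXA9 cells and 2456 bp in treated NUP98-HOXD13 cells, against 2389 bp in DMSO. Sp3, a zinc-finger factor that binds GC boxes, had 2506 bp in treated NUP98-HOXA9 cells, against 2063 bp in DMSO, and 2149 bp in treated NUP98-HOXD13 cells, against 2314 bp in DMSO. Both lost all MLL1 in treated NUP98-NSD1 cells, where DMSO had 537 bp at Ywhaz and 1727 bp at Sp3. The other 4 of the 6 domains with the highest mean were chr17:39842994-39848836, the pair at Mid1 and chr1:24612166-24616181. The chr17 domain, over Rn18s-rs5 and AY036118, and the pair at Mid1 are among those set apart above. The chr1 domain, over Gm10222 and Gm10925, is not. Neither the chr17 nor the chr1 domain overlaps a protein-coding gene. Whether the rows at these 4 domains stand for MLL1 binding was not tested.

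Domains that overlap no protein-coding gene differed among themselves. Some are called by the nearest such gene, which lies 28068 bp away for Kcnrg, 30716 bp for Hibadh and 53467 bp for Ppara in those below. One near Kcnrg, at chr14:61640902-61650576, overlaps the noncoding gene Dleu2, and MLL1 covered 1080 bp in treated NUP98-HOXA9 cells, against 9449 bp in DMSO, and 3303 bp in treated NUP98-JARID1A cells, against 7440 bp in DMSO. Near Hibadh, at chr6:52671017-52678874, treated NUP98-HOXA9 cells had 3767 bp, against 7858 bp in DMSO, and Menin in NUP98-HOXD13 covered 235 bp after treatment, against 4181 bp in DMSO. A stretch of 19992 bp near Ppara (chr15:85661451-85681442) was wide in NUP98-JARID1A and NUP98-NSD1. There MLL1 covered 17243 bp in treated NUP98-JARID1A cells, against 16465 bp in DMSO, and 5180 bp in treated NUP98-NSD1 cells, against 19331 bp in DMSO. At chr1:24612166-24616181, 94.0% of the DMSO length was left in NUP98-HOXA9, 107% in NUP98-HOXD13 and 106% in NUP98-JARID1A.

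The domain at Zcchc7 (chr4:44770058-44781919) was seen in NUP98-HOXA9 and NUP98-HOXD13. MLL1 covered 356 bp of it in treated NUP98-HOXA9 cells, against 11862 bp in DMSO, and 0 bp in treated NUP98-HOXD13 cells, against 6075 bp in DMSO. Both NUP98-JARID1A lists and both NUP98-NSD1 lists had 0 bp of it.

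**Figure D2:**
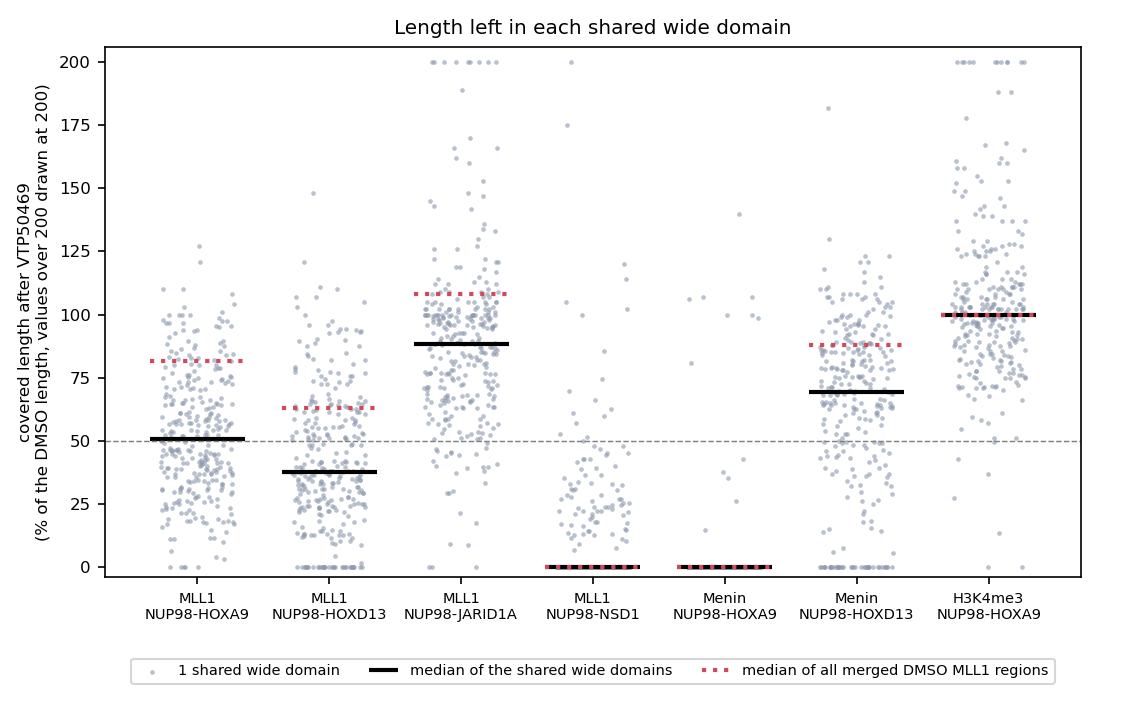
Each point is 1 shared wide domain, and its height is the covered length after VTP50469 as a percent of the DMSO length in the same pair (values over 200 are drawn at 200). Solid bars are medians over the domains, dotted bars medians over all merged DMSO MLL1 regions, and the dashed line marks 50%; for MLL1 the domain medians were 50.7% in NUP98-HOXA9 cells, 37.7% in NUP98-HOXD13 cells, 88.4% in NUP98-JARID1A cells and 0% in NUP98-NSD1.

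The MLL1 length left differed widely between lines, and the DMSO lengths it is divided by are those that chose the members. Pooled over domains, NUP98-HOXA9 cells had 50.4% of the DMSO MLL1 length left, NUP98-HOXD13 cells 39.4%, NUP98-JARID1A cells 83.0% and NUP98-NSD1 cells 16.0%. A wide row was present in 50 domains in treated NUP98-HOXA9 cells, against 273 in DMSO, and in 24 domains in treated NUP98-HOXD13 cells, against 201 in DMSO. For NUP98-JARID1A the counts were 215 after treatment and 257 in DMSO, and for NUP98-NSD1 they were 9 and 80. In domains chosen by the other 3 lines, the pooled length left in NUP98-JARID1A was 96.9%, with a wide row in 126 domains after treatment and in 129 in DMSO.

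At 50% or less of the DMSO length were 156 of 315 domains in NUP98-HOXA9 (49.5%, 95% Wilson interval 44.0% to 55.0%), where 27.0% of all merged DMSO MLL1 regions were. In NUP98-HOXD13 it was 197 of 314 (62.7%, 57.3% to 67.9%), beside 40.2% of all regions. NUP98-JARID1A had 28 of 311 (9.0%, 6.3% to 12.7%), beside 10.1%, and NUP98-NSD1 262 of 279 (93.9%, 90.5% to 96.2%), beside 94.6%. The intervals cover counting over domains only. Since the DMSO lengths chose the members, nothing is read from the differences to all regions in these counts.

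Another count comes from domains chosen without the line in question, that is, with wide rows in 2 or more of the other 3 lines. Of such domains, 75 of 173 (43.4%, 36.2% to 50.8%) were at 50% or less in NUP98-HOXA9 and 157 of 236 (66.5%, 60.3% to 72.2%) in NUP98-HOXD13. The shares of all regions were 27.0% and 40.2%, but those regions were narrower, with a median of 543 bp. The domains were chosen as wide in other lines, and 131 of the 173 also had a wide NUP98-HOXA9 row in DMSO. For NUP98-HOXD13 it was 123 of 237. The part of width in these shares was not tested, and the intervals cover counting over domains only. In NUP98-JARID1A 11 of 183 were at 50% or less (6.01%, 3.39% to 10.4%), beside 10.1% of all regions. In NUP98-NSD1 it was 245 of 262 (93.5%, 89.9% to 95.9%), beside 94.6%. The median left in NUP98-JARID1A was 100% in these domains, against 108% over all its regions.

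The same domains tended to be shortened in different lines. Over 306 domains the percent left in NUP98-HOXA9 and NUP98-HOXD13 had a Spearman correlation of 0.69 (Pearson 0.67), and NUP98-JARID1A correlated less with either, at 0.46 with NUP98-HOXA9 over 303 domains and 0.40 with NUP98-HOXD13 over 302. The points share the domains and their widths, and no p-value is given. Of the 315, 97 were at 50% or less in none of the 3 lines given 2 µM, 78 in 1 of them, 117 in 2 and 23 in 3. At 50% or less in all 4 lines were 19, among them Meis1, Baz2b, Dnajc6, Mns1, Etv6, Foxn3, Cdk17, Phip and the domain near Kcnrg. Neither the joint counts nor the correlations were made for all merged regions, so they are not read as a trait of the domains.

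Without the 8 domains that Menin covered after treatment, these values hardly moved. The share at 50% or less was 50.5% in NUP98-HOXA9 cells, 64.1% in NUP98-HOXD13 cells, 9.24% in NUP98-JARID1A cells and 95.3% in NUP98-NSD1. The pooled length left was 48.6%, 36.5%, 82.0% and 13.6% in the same order of lines. A wide row was left in 5 domains in treated NUP98-NSD1 cells, against 77 in DMSO, where 9 and 80 were counted with the 8.

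Menin was present at most of the domains in DMSO, in stretches shorter than those of MLL1. Its list touched 265 domains in treated NUP98-HOXD13 cells, against 304 in DMSO (96.5%, beside 60.6% of all merged DMSO MLL1 regions). In NUP98-HOXA9 it touched 13 after treatment, against 211 in DMSO (67.0%, beside 31.7% of all regions). The covered part was small: 20.2% of the domain bases in treated NUP98-HOXD13 cells, against 31.4% in DMSO, and 3.06% in treated NUP98-HOXA9 cells, against 12.5% in DMSO. Without the 8 domains set apart, the share was 0.119% in treated NUP98-HOXA9 cells, against 9.99% in DMSO, and 17.8% in treated NUP98-HOXD13 cells, against 29.5% in DMSO. The rule did not use Menin, but a long stretch has more room to meet a region than a short one, and the domains had a median of 3497 bp against 543 bp for all regions.

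The Menin length left differed between the lines in which it was mapped. In NUP98-HOXA9, 203 of the 211 domains with Menin were at 50% or less (96.2%, 92.7% to 98.1%, beside 98.1% of all regions), and the 8 that were not are those set apart above. The lists of that pair differ in length, with 345 rows after treatment and 8961 in DMSO. When the DMSO list was limited to its 345 strongest rows, Menin touched 4.13% of the domains after treatment and 3.81% in DMSO, and since a list of 345 rows can touch few domains, this comparison does not show whether Menin was lost. In NUP98-HOXD13, 96 of 304 were at 50% or less (31.6%, 26.6% to 37.0%), beside 16.4% of all regions. The median length left was 69.3% over the domains and 88.0% over all regions.

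In NUP98-HOXD13 cells the share of domains at 50% or less of their Menin length was higher where more lines shared the domain. At 50% or less were 26 of 49 domains wide in 4 lines (53.1%, 39.4% to 66.3%), 27 of 77 wide in 3 lines (35.1%, 25.3% to 46.2%) and 43 of 178 wide in 2 lines (24.2%, 18.5% to 30.9%). Wide domains of 1 line had 17.8% and all regions 16.4%. NUP98-HOXD13 itself had a wide DMSO MLL1 row in 49 of 49, 74 of 83, 78 of 183 and 64 of 740 domains for 4, 3, 2 and 1 line. The number of lines and the wide rows of this line thus moved together, and the part of each was not tested. Width moved with the number of lines, with medians of 4453, 4331, 2933 and 2394 bp for 4, 3, 2 and 1 line. Within 2000 to 3000 bp the shares were 40.0% of 10, 31.6% of 19 and 15.1% of 93 domains for 4, 3 and 2 lines. Between 3000 and 5000 bp they were 42.1% of 19, 45.8% of 24 and 28% of 50, and from 5000 bp on 82.4% of 17, 33.3% of 30 and 44.1% of 34. The 4-line share was above the 2-line share in all 3 ranges, and the 3-line share was not always between them.

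**Figure D3:**
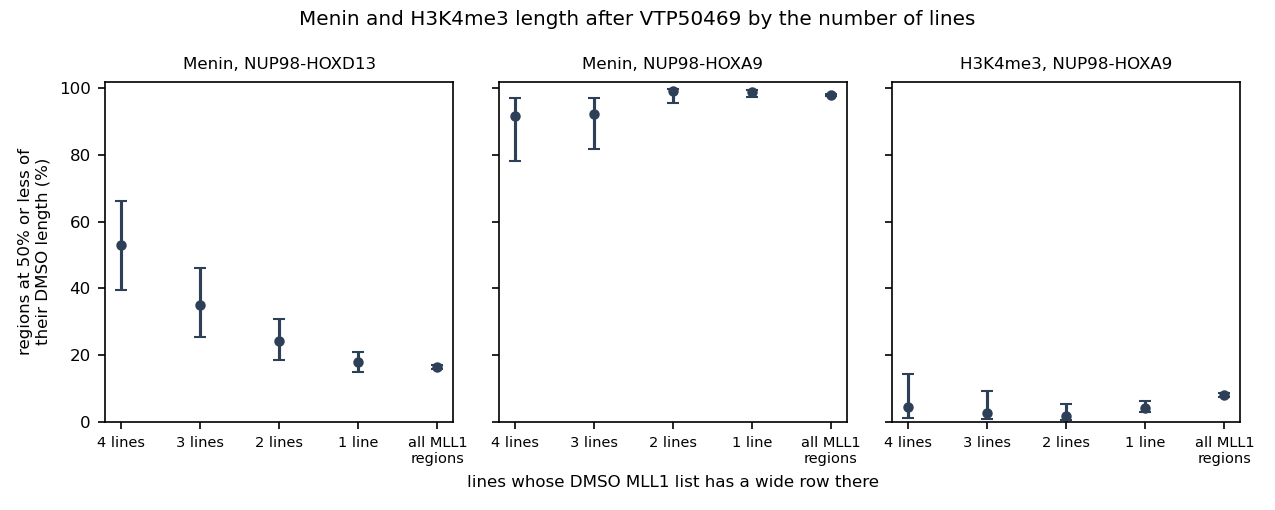
Points give the percent of regions whose Menin or H3K4me3 length after VTP50469 was 50% or less of DMSO, with 95% Wilson intervals, for domains wide in 4, 3, 2 or 1 line and for all merged DMSO MLL1 regions. In NUP98-HOXD13 the Menin share is 53.1% for 4 lines and 16.4% for all regions, whereas Menin in NUP98-HOXA9 stays above 90% and H3K4me3 below 9% throughout.

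The 4-line domains with a shortened Menin length in NUP98-HOXD13 cells include Hoxa, Hoxb, Meis1, Runx2 and Cdk6. Runx2 and Cdk6 had 0 bp of Menin after treatment, against 929 and 1537 bp in DMSO, and Hoxb7 with Hoxb8 had 0 bp, against 2801 bp in DMSO. Members that kept Menin were Cdkn1b, with 1660 bp after treatment and 2128 bp in DMSO, Cebpa, with 630 and 629 bp, and Sp3, with 2109 and 2187 bp. Over 295 domains the percent of Menin left and the percent of MLL1 left in this line had a Spearman correlation of 0.55 (Pearson 0.55).

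H3K4me3, mapped in NUP98-HOXA9 cells, covered about the same length of the domains in both conditions. Its list touched 288 domains after VTP50469, against 289 in DMSO (91.7%, beside 30.7% of all merged DMSO MLL1 regions). It covered 571779 bp of the domains after treatment and 563956 bp in DMSO, so that 101% of the length was left, with a median of 100%. At 50% or less were 7 of 289 (2.42%, 1.18% to 4.91%), beside 8.08% of all regions. In the same line 156 domains were at 50% or less for MLL1, measured at 72 h where H3K4me3 was measured at 96 h. Over 287 domains the percent of H3K4me3 left and the percent of MLL1 left had a Spearman correlation of 0.02 (Pearson 0.06).

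The 7 domains at 50% or less of their H3K4me3 length were, besides Meis1, Eya1 (359 bp after VTP50469, against 970 bp in DMSO), Rnf220 (382 bp, against 2834 bp), Skap2 (524 bp, against 1923 bp), Srgn (0 bp, against 804 bp), Acadl (843 bp, against 1708 bp) and a stretch over the noncoding gene Dleu2, 67697 bp from Kcnrg (705 bp, against 1648 bp). Meis1, Eya1 and Rnf220 are on the list of leukaemia targets, and Skap2 is the neighbour of the Hoxa cluster. Another 12 domains were at 200% or more, including Hoxb8 with Hoxb7, Rb1 with Lpar6 (1814 bp after treatment, against 729 bp in DMSO), Tbl1xr1, Klf13 and Bahcc1. The share of all merged regions at 200% or more was not counted. Longer after treatment by any amount were 148 of 289 domains and 4261 of 8367 of all regions with H3K4me3 in DMSO. These names were chosen after their values were seen.

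In the 3 lines given 2 µM, a larger share of the MLL1 left after treatment lay near gene starts. In the 307 domains, 32.7% of all bases lie within 1 kb of a start in the promoter table. Of the MLL1 bases covered, 54.2% did so in treated NUP98-HOXA9 cells, against 40.4% in DMSO, and 62.3% in treated NUP98-HOXD13 cells, against 45.6% in DMSO. NUP98-JARID1A had 41.4% after treatment and 34.9% in DMSO. NUP98-NSD1, where little was left, had 44.9% and 45.4%.

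In the 3 lines given 2 µM, lost MLL1 bases lay near a start less often than kept ones. Of the lost bases, 27.7% lay within 1 kb of a start in NUP98-HOXA9 cells, 36.1% in NUP98-HOXD13 cells and 13.5% in NUP98-JARID1A cells, against 54.2%, 62.5% and 41.1% of the bases still covered. In NUP98-NSD1 the shares were alike, 45.4% of lost and 44.9% of kept bases. The same order held in MLL1 regions outside the domains, with 30.0% of lost and 49.5% of kept bases in NUP98-HOXA9, 42.4% and 56.8% in NUP98-HOXD13 and 36.2% and 56.4% in NUP98-JARID1A. Outside the domains NUP98-NSD1 had 54.5% of lost and 63.3% of kept bases. The order in the 3 lines is therefore seen outside the wide domains too. The promoter table has a start for 17273 of 21627 protein-coding genes, so distances to starts it does not hold are not counted.

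**Figure D4:**
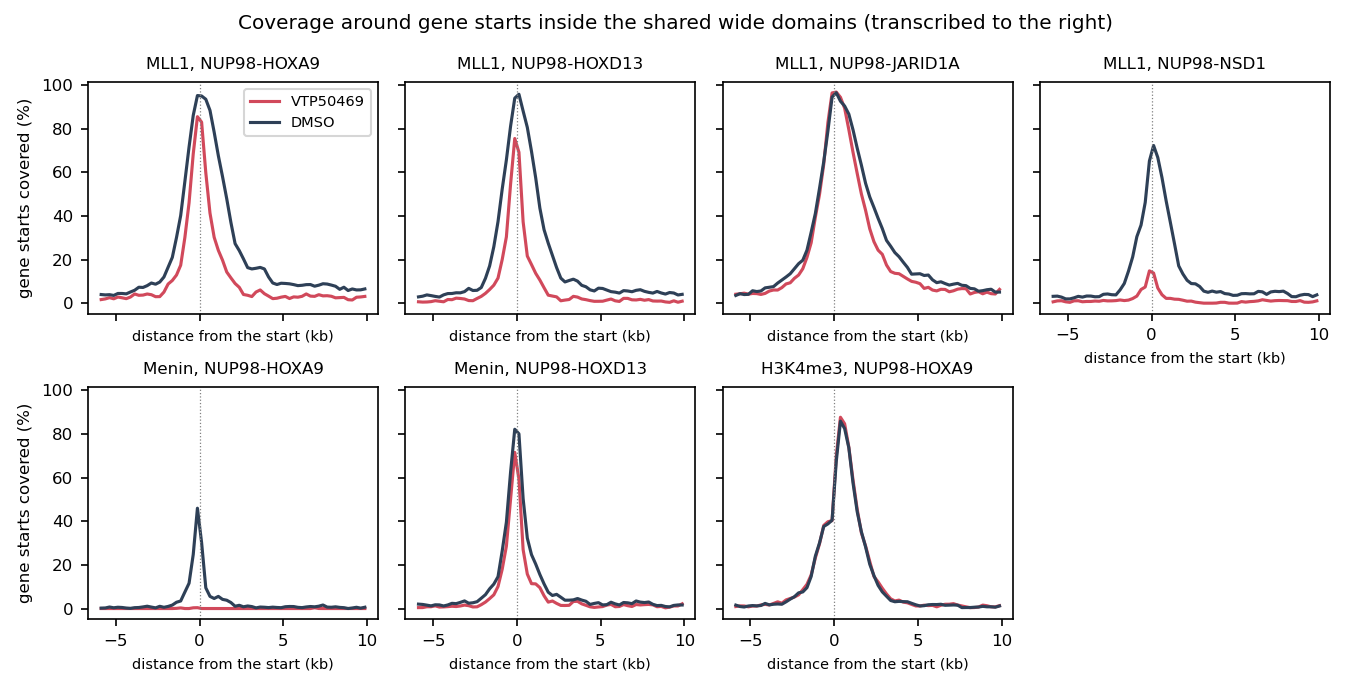
The curves give the percent of 255 gene starts, in 221 domains, whose surroundings are covered by the list at each distance, in bins of 250 bp, with transcription to the right and VTP50469 and DMSO in separate colours. In NUP98-HOXA9 and NUP98-HOXD13 the treated MLL1 curve is a narrow peak inside the DMSO one, in NUP98-JARID1A the curves differ mainly downstream, and the H3K4me3 curves overlie each other.

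Around the 255 starts the lines differed in where MLL1 was lost. At 125 bp after the start, MLL1 covered 83.0% of starts in treated NUP98-HOXA9 cells, against 95% in DMSO, whereas at 1875 bp it covered 11.6%, against 37.0% in DMSO. The treated NUP98-HOXD13 list covered 69.2% of starts at 125 bp, against 95.8% in DMSO, and 3.67% at 1875 bp, against 27.5% in DMSO. In NUP98-JARID1A cells MLL1 at 125 bp differed little, 96.8% after treatment and 96.5% in DMSO, and the gap opened downstream, with 42.6% against 55.0% at 1875 bp and 22.4% against 34.2% at 2875 bp. NUP98-NSD1 had the widest gap near the start, with 13.8% after treatment and 72.3% in DMSO at 125 bp, and 1.36% and 13.4% at 1875 bp. Upstream at -1875 bp NUP98-JARID1A had 15.8% after treatment and 19.7% in DMSO. H3K4me3 peaked 375 bp after the start and covered 28.7% of starts at 1875 bp after treatment and 28.3% in DMSO.

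Kept MLL1 bases held Menin more often than lost ones. In NUP98-HOXD13, the DMSO Menin list covered 22.7% of the MLL1 bases that were lost and 90.1% of those still covered after VTP50469. The treated Menin list covered 4.56% of the lost and 72.9% of the kept ones. In NUP98-HOXA9, DMSO Menin covered 1.21% of the lost bases and 27.5% of the kept ones, and the treated Menin list covered 0.0% of the lost and 0.346% of the kept ones. Outside the domains the shares in DMSO were 33.5% of lost and 94.7% of kept bases in NUP98-HOXD13, and 0.64% and 36.2% in NUP98-HOXA9, so this too holds for MLL1 regions in general. MLL1 was measured at 72 h and Menin at 96 h in NUP98-HOXA9, and both at 96 h in NUP98-HOXD13.

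H3K4me3 did not sort the bases in this way. In NUP98-HOXA9 it covered 44.4% of the lost MLL1 bases after VTP50469, against 43.7% of them in DMSO. On the bases still covered by MLL1 the shares were 52.2% and 50.7%. Bases that lost MLL1 thus held H3K4me3 to nearly the same extent as before.

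**Figure D5:**
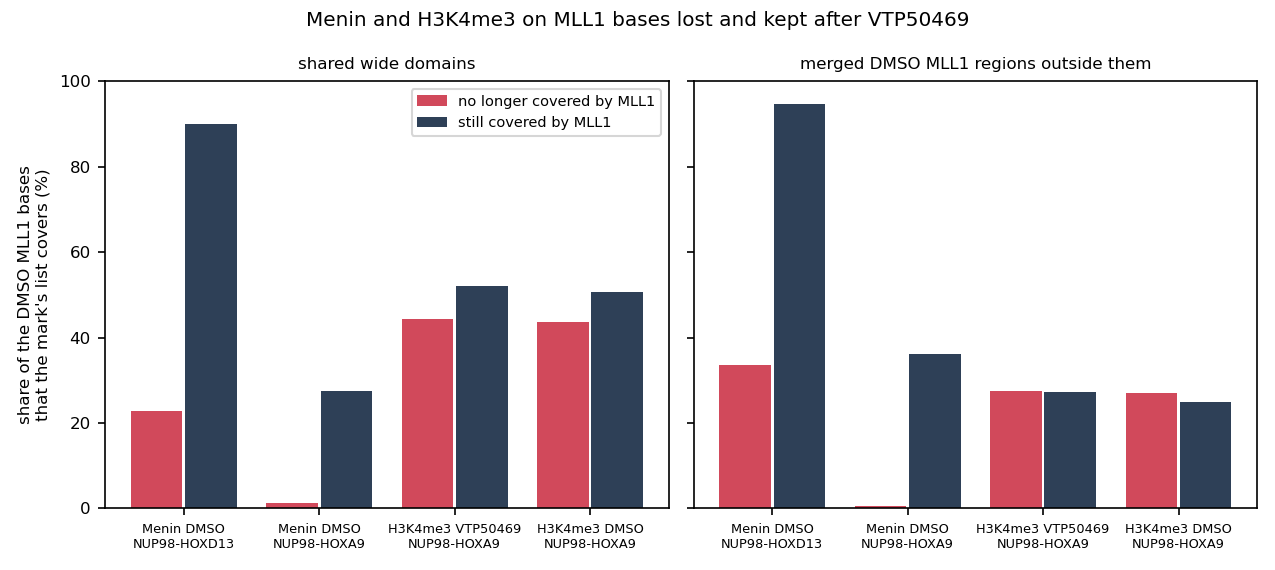
Bars give the percent of the DMSO MLL1 bases of a line, split into those no longer covered and those still covered by MLL1 after VTP50469, that the list named below covers, in the 307 domains (left) and in MLL1 regions outside them (right). The Menin bars are unequal, for example 22.7% and 90.1% in NUP98-HOXD13 in the domains, and the H3K4me3 bars nearly equal, 44.4% and 52.2% after VTP50469.

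Promoters inside the domains were rich in CG. Counted per 300 bases, the 310 promoters of 252 genes had a median of 28 CG, against 22 for 9588 promoters in other DMSO MLL1 regions and 13 for all 21044 promoters. In NUP98-HOXD13, 49 promoters inside the domains that MLL1 no longer covered had a median of 21 CG, and the 254 it still covered had 29. NUP98-HOXA9 had 23 lost promoters with a median of 23 CG and 280 kept ones with 28. Quartiles overlapped, at 11 and 36 CG for lost and 22 and 37 for kept promoters in NUP98-HOXD13. NUP98-NSD1 went the other way, with a median of 30.5 CG in 174 lost promoters and 28 in 62 kept ones. Several promoters of 1 gene share sequence, so they are not independent.

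The domains hold 13 microRNA genes, and the mature sequences of 6, picked with their values known, are given from RefSeq (GRCm38.p6), 5′ to 3′, with the seed, bases 2 to 8, in capitals, to show which share a seed.
mmu-miR-15b-5p, chr3:69009775-69009796: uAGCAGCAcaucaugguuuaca
mmu-miR-16-5p, chr3:69009918-69009939: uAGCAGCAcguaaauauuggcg
mmu-miR-196b-5p, chr6:52230129-52230150: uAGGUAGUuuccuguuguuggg
mmu-miR-10a-5p, chr11:96317186-96317208: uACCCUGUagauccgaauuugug
mmu-miR-21a-5p, chr11:86584120-86584141: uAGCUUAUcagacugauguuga
mmu-miR-301a-3p, chr11:87113054-87113076: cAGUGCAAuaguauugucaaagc
The first pair share the seed AGCAGCA and lie in the domain over Smc4 and Ift80 on chromosome 3, and the other 4 have seeds of their own.

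Of the 13 microRNA genes, MLL1 lay over a mature sequence after VTP50469 in 4 of the 7 that had it in DMSO in NUP98-HOXA9, 3 of 6 in NUP98-HOXD13, 5 of 11 in NUP98-JARID1A and 1 of 4 in NUP98-NSD1. No such count was made for microRNA genes elsewhere or for stretches of that length in all regions, so nothing is read from these counts. Mir7238 kept it in the 3 lines given 2 µM, and Mir707 and Mir615 in NUP98-HOXA9 and NUP98-HOXD13. At Mir15b and Mir16-2, NUP98-JARID1A was the only line with MLL1 over the mature sequences in DMSO, and it had none after VTP50469. Mir301, in the domain over Prr11 and Ska2, and the mature miR-10a, between Hoxb4 and Hoxb5 in the Hoxb domain, lost it too. Mir10a was covered in DMSO in NUP98-HOXA9 and NUP98-JARID1A and in no treated list. Over Mir21a, in the domain at Vmp1, MLL1 was present in DMSO in NUP98-HOXA9 and NUP98-JARID1A and absent after treatment, while H3K4me3 covered it in both conditions. Mir196b, between Hoxa9 and Hoxa10, kept MLL1 in treated NUP98-HOXA9, NUP98-JARID1A and NUP98-NSD1 cells and lost it in treated NUP98-HOXD13 cells. Expression of these microRNAs was not analysed here.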

How the data were processed

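Chromatin immunoprecipitation with sequencing was done for MLL1, Menin and H3K4me3, and 14 of 24 libraries have a list of enriched regions. The other 10 are inputs, which were not analysed here. Per the submitters' processing notes, MACS2, bedtools and SAMtools were used with Picard 2.9.4, bcl2fastq 2.20.0.422 and STAR 2.7.5a, on build mm10. Not given in the sources used here were their settings and which input served which library. Each row of a list has a start, an end, and a fold enrichment and −log10 p and −log10 q values that the authors deposited. The fold values were not compared between lists, and the −log10 values served only to rank or limit rows. The lowest −log10 q in a list was 2.00 to 2.23, read depth is unknown, and no list was rescaled.

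Covered bases, counted once where rows overlap, were summed per domain and list with Python 3.11.15, numpy 2.4.6 and pandas 2.3.3, and the counting was tested on simulated regions. A region was counted with 1 bp or more of overlap, and a domain was at 50% or less when its VTP50469 length was at most 50% of its DMSO length. The 95% Wilson intervals cover counting over domains only. The comparison is with all 27222 merged DMSO MLL1 regions. Genes and promoters are those of RefSeq for GRCm38.p6, the same build. The gene table gives extents without exons or strand, so exons, introns and UTRs were not told apart.

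Named domains are the 15 widest of 4 lines, the 10 widest of 3 and of 2 lines, the 6 with the lowest and the 6 with the highest mean length left, the 3 on each side of the width limit, and those on the gene lists. The domains and the gene lists were chosen with earlier results of these data known. Alternatives tried were other width limits, joined rows, 3 or more lines, a stricter q, lists of equal length, a larger overlap, another limit of loss, and other lines choosing the domains. Base composition over whole domains was not analysed, and promoters were used in its place. Some named domains are not reported here.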

Additional observations from a re-analysis of the deposited data

Results flagged for a closer look

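At 3 of 311 domains, MLL1 differed in opposite directions between lines after VTP50469: it was at least 1.5 times as long as in DMSO in NUP98-JARID1A cells and at most 0.5 times as long in both NUP98-HOXA9 and NUP98-HOXD13 cells. With 1 library per condition the difference between lines was not tested. Pbx3, whose product partners HOX proteins, had 346% of its DMSO length left in NUP98-JARID1A (947 bp, against 274 bp in DMSO), 46.7% in NUP98-HOXA9 and 18% in NUP98-HOXD13. Pcdh7, a protocadherin of the cell surface, had 318% left in NUP98-JARID1A (2262 bp, against 711 bp in DMSO), 14% in NUP98-HOXA9 and 30.9% in NUP98-HOXD13. Dusp7, a phosphatase that switches off MAP kinases, had 153% left in NUP98-JARID1A (2159 bp, against 1410 bp in DMSO), 29.5% in NUP98-HOXA9 and 34.2% in NUP98-HOXD13. Over all merged regions, 8826 of 15033 with DMSO MLL1 in NUP98-JARID1A were longer after treatment, with a median of 108% of the DMSO length. Of all regions, 27.0% in NUP98-HOXA9 and 40.2% in NUP98-HOXD13 were at 50% or less. How many of all regions meet both limits was not counted, so the 3 are not read as a trait of the domains. The part of the longer NUP98-JARID1A list in these values was not tested.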

How the results depend on the processing

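Of 176 values under alternatives to the 19 main ones, 130 stayed inside limits set around the main value and 46 did not. The limits were the 95% Wilson interval for shares of domains and 1.5 times for the number of domains. For the length left, the pooled percent was treated as if it were a share of domains. Those limits are therefore only a yardstick and give no spread of the length left. Rows of 1500 bp or more gave 958 domains, of which 37.2% in NUP98-HOXA9 and 53.1% in NUP98-HOXD13 were at 50% or less; 56.1% of the length was left in NUP98-HOXA9, a wide row after VTP50469 was present in 22.0% in NUP98-HOXA9 and 1.36% in NUP98-NSD1, and Menin touched 88.4% in treated NUP98-HOXD13. Rows of 3000 bp or more gave 76 domains, with 61.8% and 75.7% at 50% or less in NUP98-HOXA9 and NUP98-HOXD13, 24.5% of the length left and 6.58% with a wide row in NUP98-NSD1, Menin in 11.8% and 77.6% of domains in treated NUP98-HOXA9 and NUP98-HOXD13, and H3K4me3 in 86.8% after VTP50469 and 88.2% in DMSO. Joining rows within 1000 bp gave 828 domains, with 43.7% and 57.2% at 50% or less in NUP98-HOXA9 and NUP98-HOXD13. It left a wide row in 30.3%, 12.7% and 1.33% in NUP98-HOXA9, NUP98-HOXD13 and NUP98-NSD1, 89.4% of the length in NUP98-JARID1A, Menin in 88.0% in treated NUP98-HOXD13, and H3K4me3 in 85.5% after VTP50469 and 86.0% in DMSO. Asking for 3 or more lines gave 132 domains, with a wide row after treatment in 22.0% in NUP98-HOXA9 cells, 12.9% in NUP98-HOXD13 cells, 81.8% in NUP98-JARID1A cells and 6.06% in NUP98-NSD1, and Menin in 7.58% in treated NUP98-HOXA9. A −log10 q of 5 or more left Menin in 61.6% in DMSO NUP98-HOXA9. With lists of equal length, 13.2% in NUP98-JARID1A and 89.7% in NUP98-NSD1 were at 50% or less, 22.0% of the length was left in NUP98-NSD1, and Menin in DMSO touched 3.81% in NUP98-HOXA9 and 89.8% in NUP98-HOXD13. At 25% or less of the DMSO length were 13.0% of domains in NUP98-HOXA9 cells, 28% in NUP98-HOXD13 cells, 2.25% in NUP98-JARID1A cells and 81.4% in NUP98-NSD1. Leaving NUP98-NSD1 out of the choice (19 values) or asking for an overlap of 200 bp (10 values) moved 0 values. Chosen after seeing the data, leaving out the 8 Menin-covered domains gave Menin in 1.63% in treated NUP98-HOXA9, and choosing domains by the other 3 lines gave 43.4% and 6.01% at 50% or less in NUP98-HOXA9 and NUP98-JARID1A and 96.9% of the length left in NUP98-JARID1A. The cause of these differences was not tested, apart from the choice of domains that each alternative makes. No paired analysis was possible because each group has 1 library, and for the same reason no replicate could be left out. Unknown read depth limits every length given.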

Other observations

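Gene families that recur among the domains were looked at after their values were seen, so the counts are descriptions. Of 21 Hnrnp genes, which encode proteins that package and splice RNA, 8 overlapped a shared wide domain (Hnrnpa0, Hnrnpa2b1, Hnrnpd, Hnrnpdl, Hnrnpf, Hnrnph1, Hnrnpk and Hnrnpul2), or 38.1%, against 1.62% of all protein-coding genes. Of all regions, 27.0% in NUP98-HOXA9 cells, 40.2% in NUP98-HOXD13 cells, 10.1% in NUP98-JARID1A cells and 94.6% in NUP98-NSD1 cells were at 50% or less. None of the 8 domains was at 50% or less of its DMSO MLL1 length in NUP98-HOXA9, NUP98-HOXD13 or NUP98-JARID1A, with medians of 78.6%, 75.5% and 91.7% left, and 7 of 8 were in NUP98-NSD1. Menin in NUP98-HOXD13 had a median of 83.9% left there and H3K4me3 111%.

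Other families were Tap and Psm, Arid and Fox. Of 25 Tap and Psm genes, which encode peptide transporters and proteasome subunits, 6 overlapped 5 domains (24.0%). Of the 5, MLL1 was at 50% or less in 1 in NUP98-HOXA9 cells, 4 in NUP98-HOXD13 cells, 0 in NUP98-JARID1A cells and 4 in NUP98-NSD1 cells, and Menin in NUP98-HOXD13 was at 50% or less in 3 of 5, beside 16.4% of all regions. Of 10 Arid genes, which encode DNA-binding subunits of chromatin complexes, 3 overlapped 3 domains (30.0%), and MLL1 was at 50% or less in 2 in NUP98-HOXA9 cells, 3 in NUP98-HOXD13 cells, 0 in NUP98-JARID1A cells and 3 in NUP98-NSD1 cells. Of 44 Fox genes, which encode forkhead transcription factors, 4 overlapped 6 domains, of which 4 in NUP98-HOXA9 cells, 4 in NUP98-HOXD13 cells, 1 in NUP98-JARID1A cells and all 6 in NUP98-NSD1 cells were at 50% or less.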
